A study of Mus musculus with 10 samples.

Results

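Transcripts that mark 8 non-macrophage sources were followed in RNA from sorted mouse brain macrophages. The set was fixed by symbol and holds 38 of the 53546 genes in the deposited count table. It has 7 astrocyte, 4 oligodendrocyte, 4 neuron, 6 endothelial, 6 fibroblast, 3 mural cell, 3 choroid plexus and 5 red cell genes. All 38 symbols were in the table, and 35 of them had a count in at least 1 library.

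The cells were CNS-associated macrophages, which live in the meninges, around vessels and in the choroid plexus, sorted from brains of untreated C57BL/6N mice aged 6 to 8 weeks. The genotypes were Mrc1-CreERT2/Mrc1-CreERT2 (Cre-Cre, 4 mice), Mrc1-CreERT2/wt (Cre-pos, 3 mice, numbered 1, 2 and 4) and wild type (WT, 3 mice), with a library from each mouse. CreERT2 is a Cre recombinase fused to a hormone-binding domain of the oestrogen receptor, and the allele's name places it at Mrc1, which encodes the macrophage mannose receptor. No treatment was given, per the labels, all mice were kept specific-pathogen-free, and each genotype held titles with the letter m and with the letter f. How the sort was gated is not stated in the labels.

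Mrc1 followed the allele, at 441 to 542 CPM (counts per 1000000, after scaling) in Cre-Cre, 1985 to 2286 CPM in Cre-pos and 3065 to 3748 CPM in WT libraries. All 10 macrophage markers examined (Mrc1, Cd163, Pf4, Lyve1, Csf1r, Ptprc, Itgam, Cd68, Aif1 and Ms4a7) had counts in all 10 libraries. Library totals were 27358042 to 36575446 counts in Cre-Cre, 22986972 to 32326603 in Cre-pos and 28668839 to 32931690 in WT mice, so that 3 counts corresponded to 0.0817 to 0.130 CPM. Summed over the 38 genes, the level was 294 to 1324 CPM in Cre-Cre, 266 to 528 CPM in Cre-pos and 290 to 826 CPM in WT libraries. These sums were 0.0267% to 0.131% of the counts of a library.

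As background, each source is defined by genes that its cells use for their own work. Astrocytes take up glutamate, move water and are joined by gap junctions, oligodendrocytes wrap axons in myelin, and neurons release transmitter from synaptic vesicles. Endothelial and mural cells build the vessel wall, fibroblasts lay down collagen, the choroid plexus epithelium secretes cerebrospinal fluid, and red cells carry haemoglobin. Macrophages engulf cells and debris, and a bulk library does not show in which cell a transcript was made. Whether a given transcript came from other cells in the sort, from engulfed or free RNA, or from the macrophages themselves was not tested. Fewer cells of a type and less RNA per cell cannot be told apart in these libraries.

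The promoters of the 4 globin genes are shown because their highest values fell in the same libraries. The sequences are the 120 bases before the annotated start, from RefSeq on GRCm38.p6, 5′ to 3′ on the strand of the gene. Hba-a1 (chr11:32283552-32283671) and Hba-a2 (chr11:32296372-32296491) lie on the plus strand, and Hbb-bs (chr7:103827929-103828048) and Hbb-bt (chr7:103813924-103814043) on the minus strand. Capitals mark 4 motifs on either strand, with adjoining matches run together. These are the CCAAT box, the CACCC box, a TATA-like run spelled ATATAA and a GATA motif spelled GATAA.
Hba-a1: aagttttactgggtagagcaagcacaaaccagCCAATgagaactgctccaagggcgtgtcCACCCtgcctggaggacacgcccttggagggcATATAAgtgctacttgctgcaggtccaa
Hba-a2: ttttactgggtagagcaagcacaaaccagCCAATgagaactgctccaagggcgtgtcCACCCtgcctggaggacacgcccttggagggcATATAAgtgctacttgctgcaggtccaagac
Hbb-bs: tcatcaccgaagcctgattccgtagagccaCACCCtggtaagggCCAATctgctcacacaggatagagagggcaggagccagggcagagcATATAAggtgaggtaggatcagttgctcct
Hbb-bt: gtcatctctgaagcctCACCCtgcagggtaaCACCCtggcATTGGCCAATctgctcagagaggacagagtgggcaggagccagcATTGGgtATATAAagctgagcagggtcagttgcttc
The CCAAT box, the CACCC box and the TATA-like run occurred in all 4 windows, and the GATA motif in 0 of them. Of 32851 mouse promoter windows of the same length, 21.29% held the CCAAT box, 31.71% the CACCC box, 4.466% the TATA-like run and 10.5% the GATA motif. The windows of Hba-a1 and Hba-a2 shared a run of 117 bases, and their coding sequences of 429 bases differed at 1 base. Hbb-bs and Hbb-bt shared a run of at most 14 bases upstream, and their coding sequences of 444 bases also differed at 1 base. The split of reads within each pair is therefore uncertain, and sums over a pair are the firmer values.

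Detection was patchy. Each library had counts for 19 to 27 members in Cre-Cre, 18 to 24 in Cre-pos and 16 to 21 in WT mice. Of the 380 gene-library pairs, 167 (43.9%) were at 0. The 6 members with a count in all 10 libraries were Aldh1l1, Aldoc, Mbp, Mag, Cnp and Syt1. Of the 38 members, 24 passed the filter on low counts, which lets a gene through on a single genotype. Among these, 23 reached 100 counts in some library, and 17 of the 23 (73.9%) were at 0 in another. Over all tested genes, 2908 of 12078 (24.1%) that reached 100 counts were at 0 in another library, and 0 of the 10 macrophage markers were. The library with the most held a median of 38.6% of the summed level of a tested member, against 18.0% over all tested genes. These shares were not matched for level.

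**Figure D1:**
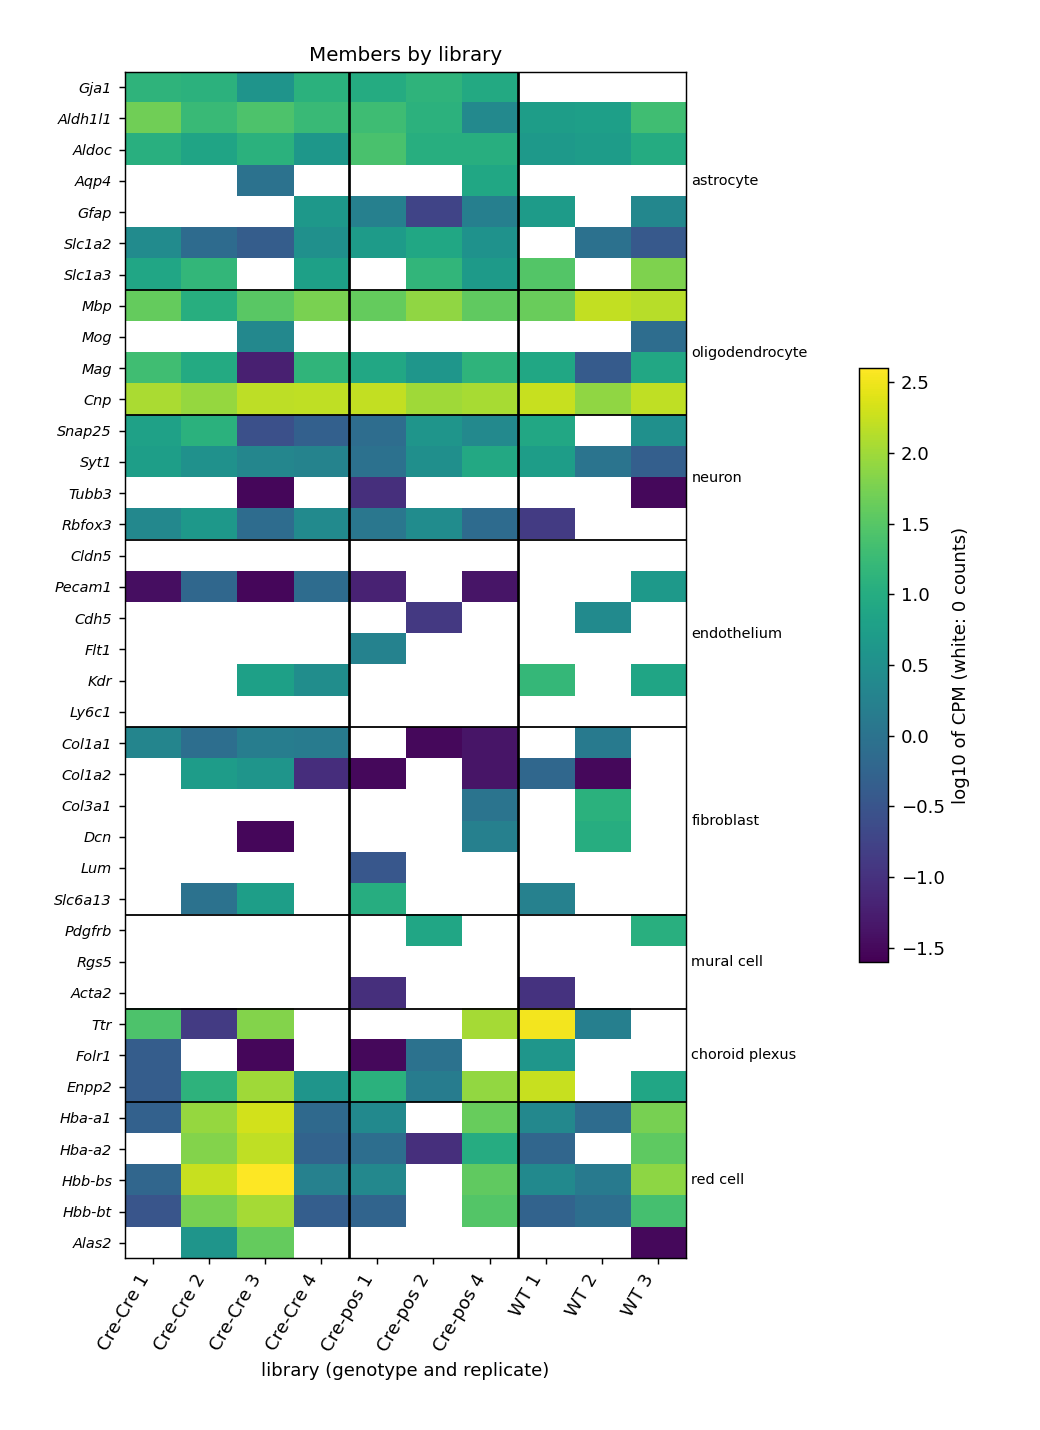
Level of each of the 38 genes (vertical, grouped by source) in each library (horizontal, by genotype), as log10 of CPM, with white for 0 counts. Cnp and Mbp are filled in all 10 libraries, Gja1 is white in the 3 WT libraries, and Cldn5, Ly6c1 and Rgs5 are white throughout.

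The astrocyte members held the only member that passed edgeR's test in any of the 3 comparisons. Gja1, which encodes the main connexin of astrocyte gap junctions, had 13.5, 12.6, 3.78 and 12.1 CPM in Cre-Cre libraries 1 to 4, 9.52, 13.5 and 8.89 CPM in Cre-pos libraries 1, 2 and 4, and 0 CPM in WT libraries 1 to 3. All 7 libraries with the allele had it and no WT library had a count, and the Cre-Cre and Cre-pos ranges overlapped. The counts behind these values were 129 to 461 in Cre-Cre and 206 to 439 in Cre-pos mice. Gja1 averaged 10.5 ± 4.51 CPM (SD, n = 4) in Cre-Cre and 10.6 ± 2.51 CPM (SD, n = 3) in Cre-pos libraries.

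Gja1 in Cre-Cre libraries was 325-fold above a floor of 3 counts over the WT group. This floor covers counting error only, and 73.9% of tested members that reached 100 counts were at 0 in another library. Gja1 passed edgeR's quasi-likelihood test over all genes in Cre-Cre against WT libraries (adjusted p = 0.0315). It was the 1 member called of 24 tested in that comparison, in which 0.0642% of all tested genes were called (9 of 14023). In Cre-pos libraries Gja1 was 340-fold above the same floor, and it did not pass edgeR's test against WT (adjusted p = 0.177). Its unadjusted p in edgeR's test was 1.55e-05 for Cre-Cre and 1.62e-05 for Cre-pos against WT. The calls therefore differed through the adjustment over all genes. Cre-Cre and Cre-pos libraries differed by -0.02 on the log2 scale (SE 0.73, edgeR adjusted p = 1). The Cre-Cre call was kept in 7 of 19 other analyses, and over the 19 the adjusted p ran from 4.99e-12 in DESeq2 to 0.329 in edgeR with replicate number as a block. It was lost when any of the 9 libraries other than WT 3 was left out, with edgeR adjusted p of up to 0.138.

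In the whole table, 9 genes including Gja1 had 0 counts in all 3 WT libraries and at least 10 counts in each of the other 7. The same pattern with 0 counts in all Cre-pos libraries was shown by 3 genes, and with 0 counts in all Cre-Cre libraries by 0 genes. After Gja1, whose lowest value among the 7 libraries was 3.78 CPM, came Scrn2 at 2.44 to 4.36 CPM, Zfp420 at 1.95 to 18.2 CPM, Zpbp at 1.07 to 4.83 CPM and Neil2 at 0.673 to 3.67 CPM. None of these 4 passed edgeR's test in Cre-Cre against WT libraries, with adjusted p of 0.218, 0.115, 0.300 and 0.357 in the same order. Of 9 other connexin and pannexin genes, 5 were tested and 0 were called by edgeR in any of the 3 comparisons, with 1, 0 and 2 of them at an unadjusted p under 0.05.

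The other astrocyte genes did not follow Gja1. Aldh1l1, a folate enzyme that marks astrocytes, had 49.1, 17.4, 26.6 and 17.6 CPM in Cre-Cre, 20.1, 12.7 and 2.37 CPM in Cre-pos and 5.38, 5.84 and 20.7 CPM in WT libraries. The highest WT library lay above 2 of the Cre-Cre libraries, so the genotypes overlapped. Its log2 difference was 1.38 (SE 0.77, edgeR adjusted p = 0.762) between Cre-Cre and WT and 0.14 (SE 0.79, edgeR adjusted p = 1) between Cre-pos and WT libraries. In the annotation used for lengths, 13.4% of the Aldh1l1 exon bases are shared with other genes.

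Slc1a3, a glial glutamate transporter, had 7.81, 15, 0 and 6.18 CPM in Cre-Cre, 0, 14.4 and 4.92 CPM in Cre-pos and 30.1, 0 and 60.5 CPM in WT libraries. Each genotype had a library at 0, and the highest values were in WT mice. Slc1a2, the other glial glutamate transporter, had 2.69, 0.736, 0.439 and 3.26 CPM in Cre-Cre, 4.99, 8.04 and 3.45 CPM in Cre-pos and 0, 0.917 and 0.374 CPM in WT libraries. The Cre-pos values lay above those of both other genotypes.

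Aldoc, a glycolytic enzyme abundant in astrocytes, had 11.3, 7.22, 12.1 and 4.25 CPM in Cre-Cre, 24.5, 11 and 10.9 CPM in Cre-pos and 4.60, 5.26 and 9.75 CPM in WT libraries. The Cre-pos values lay above all WT values, with a log2 difference of 1.24 that did not pass edgeR's test (SE 0.66, adjusted p = 0.798), and the Cre-Cre values overlapped WT (0.42, SE 0.61, adjusted p = 0.999). Gfap, the astrocyte intermediate filament, had 0, 0, 0 and 4.28 CPM in Cre-Cre, 1.66, 0.185 and 1.64 CPM in Cre-pos and 5.04, 0 and 2.21 CPM in WT libraries. Aqp4, the water channel of astrocyte endfeet, had counts in 2 libraries, Cre-Cre 3 at 0.966 CPM and Cre-pos 4 at 8.12 CPM.

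Summed without Gja1, the 6 other astrocyte genes had a lowest, median and highest level of 35.6, 40.2 and 70.9 CPM in Cre-Cre, 31.4, 46.2 and 51.3 CPM in Cre-pos and 12, 45.1 and 93.6 CPM in WT libraries. The WT range enclosed both others, but its 2 higher values rested mostly on Slc1a3. This gene supplied 60.5 of the 93.6 CPM in WT 3 and 30.1 of the 45.1 CPM in WT 1. Gja1 had 0 counts in WT 3, the library with the highest astrocyte sum. Of 14 further astrocyte markers, 8 were tested and 0 were called by edgeR in either comparison with WT, and 0 and 1 of them had an unadjusted p under 0.05. The most abundant of these was Glul, glutamine synthetase, at 191 to 253 CPM in Cre-Cre, 207 to 310 CPM in Cre-pos and 216 to 270 CPM in WT libraries. Glul is also expressed by macrophages.

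The oligodendrocyte members included Cnp, the member spread most evenly over the libraries, with 13.4% of its summed level in the highest. Cnp, a phosphodiesterase of myelin that other cells also express, had 115, 87.1, 155 and 157 CPM in Cre-Cre, 164, 101 and 111 CPM in Cre-pos and 175, 81.2 and 156 CPM in WT libraries. The 3 genotypes covered the same range, with means of 129 ± 33.6 (SD, n = 4), 125 ± 33.9 (SD, n = 3) and 137 ± 49.5 CPM (SD, n = 3) in that order. Its log2 difference from WT was -0.10 (SE 0.30, edgeR adjusted p = 0.999) in Cre-Cre and -0.13 (SE 0.32, edgeR adjusted p = 1) in Cre-pos libraries. Both signs turned when single libraries were left out.

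Mbp, myelin basic protein, had 41.3, 10.7, 33.8 and 57.8 CPM in Cre-Cre, 40.5, 80.8 and 37.9 CPM in Cre-pos and 42.9, 164 and 140 CPM in WT libraries. WT libraries 2 and 3 lay above every other library, and WT 1 lay within the range of the others. The mean was 35.9 ± 19.6 CPM (SD, n = 4) in Cre-Cre and 53.0 ± 24.0 CPM (SD, n = 3) in Cre-pos, against 116 ± 64.1 CPM (SD, n = 3) in WT libraries. Neither difference passed edgeR's test, at a log2 value of -1.69 for Cre-Cre (SE 0.57, adjusted p = 0.590) and -1.12 for Cre-pos (SE 0.62, adjusted p = 0.811). Some Mbp-locus transcripts are also made in blood cells, and a gene-level table does not separate them.

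Mag, a myelin adhesion molecule, had 20.2, 9.15, 0.0586 and 13.9 CPM in Cre-Cre, 8.42, 4.07 and 13.6 CPM in Cre-pos and 8.03, 0.398 and 8.19 CPM in WT libraries. The genotypes overlapped, and Cre-Cre 3 had 2 counts. Its log2 difference from WT was 0.97 (SE 1.37, edgeR adjusted p = 0.999) in Cre-Cre and 0.65 (SE 1.44, edgeR adjusted p = 1) in Cre-pos libraries. Mog, which is found on the outer face of myelin and is the most restricted of the 4, had counts in Cre-Cre 3 (2.28 CPM) and WT 3 (0.810 CPM) and in no other library. Of 12 further oligodendrocyte markers, 6 were tested and 0 were called by edgeR in either comparison with WT (1 and 1 with an unadjusted p under 0.05), and Opalin and Sox10 were at 0 in all 10 libraries.

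**Figure D2:**
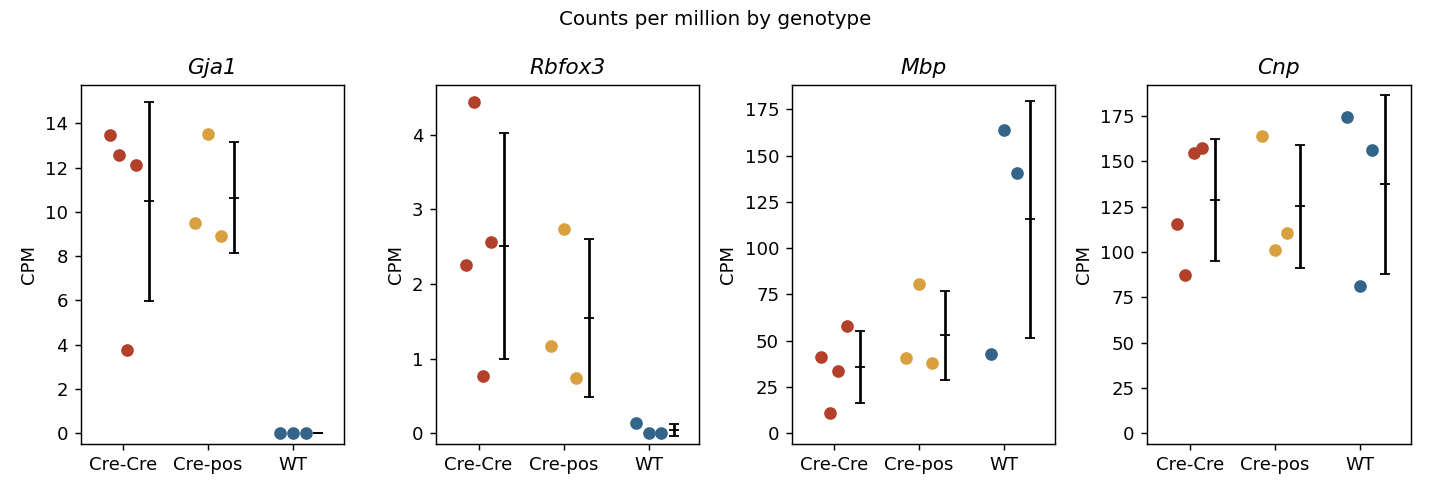
CPM (vertical) of Gja1, Rbfox3, Mbp and Cnp by genotype (horizontal), with a point for each library and a bar for the mean and SD beside the points. Gja1 is at 0 in the 3 WT libraries and at 3.78 to 13.5 CPM in the other 7, whereas Cnp covers the same range in all genotypes.

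The neuronal members were low in every library. Snap25, a synaptic vesicle fusion protein, had 6.43, 12, 0.263 and 0.483 CPM in Cre-Cre, 0.785, 3.91 and 2.42 CPM in Cre-pos and 8.37, 0 and 3.21 CPM in WT libraries. Syt1, the calcium sensor of synaptic vesicles, had 5.67, 3.30, 2.11 and 1.90 CPM in Cre-Cre, 0.942, 3.14 and 8.55 CPM in Cre-pos and 5.45, 1.04 and 0.467 CPM in WT libraries. Both genes overlapped between genotypes, and libraries that were high for one of them were not always high for the other. The log2 difference of Syt1 from WT was 0.48 (SE 1.23, edgeR adjusted p = 0.999) in Cre-Cre and 0.86 (SE 1.32, edgeR adjusted p = 1) in Cre-pos libraries. Tubb3, the neuronal tubulin, had at most 3 counts, in 3 libraries.

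Rbfox3, the splicing factor known as NeuN, had 2.25, 4.44, 0.761 and 2.56 CPM in Cre-Cre, 1.16, 2.74 and 0.734 CPM in Cre-pos and 0.136, 0 and 0 CPM in WT libraries. All 7 libraries with the allele lay above all WT libraries, at 26 to 163 counts in Cre-Cre and 17 to 89 in Cre-pos against 0 to 4 in WT mice. The log2 difference was 5.68 for Cre-Cre (SE 2.04, adjusted p = 0.606) and 4.99 for Cre-pos (SE 2.0, adjusted p = 0.791) against WT, and neither passed edgeR's test. DESeq2 called the Cre-Cre difference (adjusted p = 0.0107). Rbfox3 was singled out after its values were seen. Snap25 and Syt1 were present in WT libraries 1 and 3 in which Rbfox3 had 4 and 0 counts. Of 12 further neuronal markers, 8 were tested and 0 were called by edgeR in either comparison with WT (1 and 0 with an unadjusted p under 0.05), and the most abundant, the vesicle protein Syp, ran from 0 to 4.13 CPM.

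Most endothelial members were at or near 0. Cldn5, the tight junction protein of brain endothelium, and Ly6c1 were at 0 counts in all 10 libraries, where 3 counts are 0.0817 to 0.130 CPM. Kdr, the main receptor for vascular endothelial growth factor, had 0, 0, 6.12 and 2.87 CPM in Cre-Cre, 0 CPM in all Cre-pos and 15.6, 0 and 7.41 CPM in WT libraries. Pecam1, an adhesion molecule of endothelium and some leukocytes, was at or below 0.754 CPM in 9 libraries and at 4.52 CPM in WT 3. Cdh5, the endothelial cadherin, was seen in Cre-pos 2 at 0.123 CPM and WT 2 at 2.57 CPM, and Flt1, another receptor of the growth factor, in Cre-pos 1 at 1.85 CPM. No library held counts of both Kdr and Cdh5. Of 13 further endothelial markers, 5 (Tek, Tie1, Esam, Emcn and Sox17) were at 0 in all libraries, 4 were tested and 0 were called by edgeR in either comparison with WT (0 and 0 with an unadjusted p under 0.05). Pltp, a phospholipid transfer protein that macrophages also express, was the most abundant of them at 631 to 755 CPM in Cre-Cre, 633 to 896 CPM in Cre-pos and 656 to 852 CPM in WT libraries.

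Fibroblast transcripts were patchy, with counts in 7 libraries for Col1a1 and for Col1a2 and in 1 for Lum. Col3a1, a fibrillar collagen, was at 1.04 CPM in Cre-pos 4 and 12.3 CPM in WT 2 and at 0 in the other 8 libraries. Dcn, a collagen-binding proteoglycan, had 0.0293 CPM in Cre-Cre 3, 1.68 CPM in Cre-pos 4 and 10.5 CPM in WT 2. The further marker Col6a2 was at 11.7 CPM in WT 2 and at 0 elsewhere. Col1a1 and Col1a2, the chains of the main fibrillar collagen, did not peak in WT 2. Col1a1 had 2.03, 0.817, 1.49 and 1.39 CPM in Cre-Cre, 0, 0.0308 and 0.0432 CPM in Cre-pos and 0, 1.31 and 0 CPM in WT libraries, so that Cre-Cre values lay above Cre-pos values. Col1a2 reached 5.29 CPM in Cre-Cre 2 and 3.84 CPM in Cre-Cre 3 and was at or below 0.647 CPM in the others.

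Slc6a13, a transporter of meningeal fibroblasts, had 0, 0.954, 5.68 and 0 CPM in Cre-Cre, 10.6, 0 and 0 CPM in Cre-pos and 1.74, 0 and 0 CPM in WT libraries. Lum, another collagen-binding proteoglycan, was seen in Cre-pos 1 alone at 0.345 CPM. The 6 genes peaked in 4 different libraries. Of 12 further fibroblast markers, 5 were tested and 0 were called by edgeR in either comparison with WT (0 and 0 with an unadjusted p under 0.05). The most abundant was Ptgds, a prostaglandin synthase of the meninges, at 52.4 to 84.8 CPM in Cre-Cre, 38.8 to 86.8 CPM in Cre-pos and 32.6 to 77.8 CPM in WT libraries.

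Mural transcripts were at 0 in most libraries. Pdgfrb, the growth factor receptor of pericytes, had 7.82 CPM (254 counts) in Cre-pos 2 and 11.2 CPM (360 counts) in WT 3 and 0 in the other 8 libraries. Rgs5, a pericyte signalling regulator, was at 0 in all 10 libraries, also where Pdgfrb was present. Acta2, smooth muscle actin, had 0.0942 CPM in Cre-pos 1 and 0.102 CPM in WT 1, which are 3 counts each. No mural member passed the filter for the test. Of 10 further mural markers, Kcnj8, Myh11, Notch3 and Des were at 0 in all libraries, and Vtn, the most abundant, ran from 0 to 6.88 CPM.

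Choroid plexus transcripts varied widely within each genotype. Ttr, the thyroid hormone carrier that choroid plexus epithelium secretes, had 26.5, 0.136, 66.6 and 0 CPM in Cre-Cre, 0, 0 and 108 CPM in Cre-pos and 336, 1.65 and 0 CPM in WT libraries. Enpp2, the lysophospholipase autotaxin, had 0.436, 13.0, 102 and 3.95 CPM in Cre-Cre, 11.9, 1.48 and 83.0 CPM in Cre-pos and 177, 0 and 7.57 CPM in WT libraries. Each genotype had a single library high for both genes, namely Cre-Cre 3, Cre-pos 4 and WT 1, and the genotypes overlapped. Folr1, a folate receptor of the epithelium, was highest in WT 1 at 3.98 CPM and at or below 0.955 CPM in the other libraries.

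WT 1 held the highest value of 3 of 3 choroid plexus members and of 3 of the 7 further markers with counts, namely Prlr at 16.2 CPM, Sostdc1 at 8.51 CPM and Kl at 7.42 CPM. The further markers Kcne2 and Otx2 were at 0 in all libraries. The proportion of the leading pair, Ttr and Enpp2, was not fixed. Ttr was at 0 in Cre-Cre 4, Cre-pos 1, Cre-pos 2 and WT 3, where Enpp2 had counts, and Enpp2 was at 0 in WT 2. Whether both transcripts came from the same source was not tested. Ttr made up 39.6% of the Ttr and Enpp2 counts in Cre-Cre 3 (exact Clopper-Pearson 95% interval 38.3 to 40.9), 56.6% in Cre-pos 4 (55.1 to 58.1) and 65.5% in WT 1 (64.7 to 66.2). Over the 9 libraries with at least 50 such counts the share ran from 0% to 100%, with 98.4% in Cre-Cre 1 and 1.04% in Cre-Cre 2. Of 9 further choroid plexus markers, 1 was tested and 0 were called by edgeR in either comparison with WT (0 with an unadjusted p under 0.05).

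Red cell transcripts had the widest range among the sources with a count in every library. Hbb-bs, an adult beta globin, had 0.617, 177, 385.3 and 1.75 CPM in Cre-Cre, 2.29, 0 and 37.7 CPM in Cre-pos and 2.48, 1.35 and 78.0 CPM in WT libraries. Hba-a1, an alpha globin, had 0.508, 86.9, 209 and 0.694 CPM in Cre-Cre, 2.45, 0 and 42.6 CPM in Cre-pos and 2.31, 0.765 and 54.8 CPM in WT libraries. The same 4 libraries, Cre-Cre 2, Cre-Cre 3, Cre-pos 4 and WT 3, were high for both genes, and each genotype also held low libraries.

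Hba-a2, the other alpha globin, had 65.8 CPM in Cre-Cre 2, 157 CPM in Cre-Cre 3, 10.1 CPM in Cre-pos 4 and 35.5 CPM in WT 3. Hbb-bt, the other beta globin, had 55.0, 109, 29.8 and 23.1 CPM in the same libraries in that order. Both were at or below 0.826 CPM in the other 6 libraries, and Cre-Cre 3 and Cre-Cre 2 were the 2 highest for each globin gene. Alas2, the haem synthesis enzyme of erythroid cells, had 40.4 CPM in Cre-Cre 3, 3.92 CPM in Cre-Cre 2, 0.0311 CPM in WT 3 and 0 in the other 7 libraries. Cre-Cre 3 thus held the highest value of 5 of 5 red cell members and of 4 of the 7 further markers with counts. Among these were Slc4a1, the anion exchanger of the red cell membrane, at 9.08 CPM, Epb42 at 3.04 CPM and Bpgm, the enzyme of bisphosphoglycerate synthesis, at 30.0 CPM. Of the further markers, 1 (Bpgm) was tested, and it was not called by edgeR in either comparison with WT (0 with an unadjusted p under 0.05).

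The share of beta globins among globin counts varied less over the libraries than the Ttr share of the choroid plexus pair. Beta globins made up 60.3% of the globin counts in Cre-Cre 2 (exact Clopper-Pearson 95% interval 59.5 to 61.1), 57.4% in Cre-Cre 3 (56.9 to 58.0), 56.1% in Cre-pos 4 (54.3 to 58.0) and 52.8% in WT 3 (51.6 to 54.1). These libraries held 14123, 29384, 2782 and 6144 globin counts in that order. Over the 8 libraries with at least 50 globin counts the share was 46.7% to 74.0% (median 56.8%). The libraries carry no molecular identifiers and PCR copies are counted, so these intervals cover counting error only. Alpha and beta chains pair in haemoglobin.

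**Figure D3:**
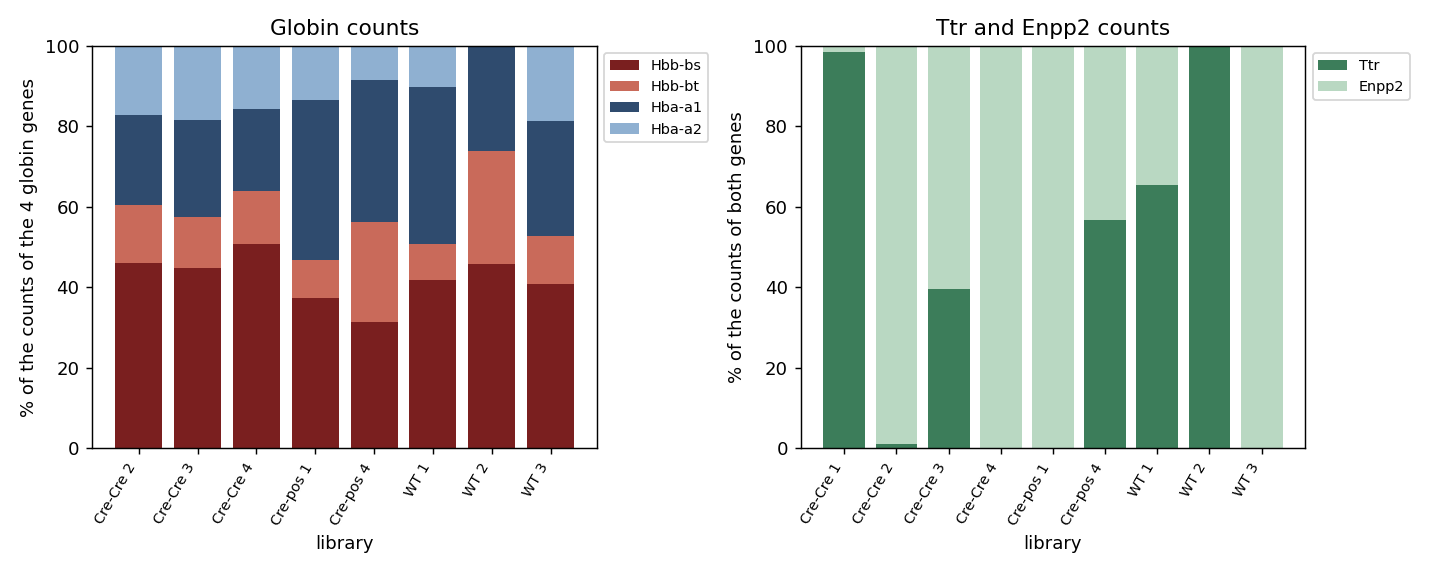
Share in % (vertical) of the counts of the 4 globin genes (left, 8 libraries) and of Ttr and Enpp2 (right, 9 libraries), for libraries (horizontal) with at least 50 such counts. The beta globin share stays between 46.7% and 74.0%, whereas the Ttr share runs from 0% to 100%.

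Levels between genes were compared per kilobase of exon, with union exon lengths from GENCODE vM21, which matched all 38 symbols. As means over the 10 libraries, Hbb-bs had 89.4, Hba-a1 49.2, Ttr 45.5, Hba-a2 40.6, Cnp 35.8 and Hbb-bt 31.2 CPM per kilobase, followed by Mbp at 7.67. Gja1, with 10257 bases of union exon, had 0.720 and Rbfox3 0.254 CPM per kilobase. A union over all annotated transcripts can exceed the length of the transcript present, which would lower such values. The 10 macrophage markers ran from 18.6 for Itgam to 3182 for Pf4, with Csf1r at 1931 CPM per kilobase. By these means Hbb-bs, Hba-a1, Ttr, Hba-a2, Cnp and Hbb-bt lay within the macrophage range and Gja1 below it. The globin and Ttr means rested on few libraries. Over the 10 libraries, Hbb-bs had a mean of 68.7 and a median of 2.39 CPM, and Ttr a mean of 53.9 and a median of 0.894 CPM.

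Summed by source, Cre-Cre and WT libraries overlapped for all 8 sources. Cre-pos sums lay all below WT sums for 2 sources, oligodendrocyte and endothelium, and the sums were not tested. The endothelial sums held 1 to 61 counts in Cre-pos and 84 to 458 in WT libraries, from 1 or 2 members in each library. The lowest, median and highest oligodendrocyte sums were 107, 184 and 229 CPM in Cre-Cre, 162, 186 and 213 CPM in Cre-pos and 226, 245 and 306 CPM in WT libraries. Cnp and Mbp supplied most of each oligodendrocyte sum, and the WT excess in Mbp was in WT 2 and WT 3. Red cell sums were 1.45, 196 and 901 CPM in Cre-Cre, 0.0924, 6.12 and 120 CPM in Cre-pos and 2.94, 5.96 and 191 CPM in WT libraries. Choroid plexus sums were 3.95, 20.3 and 168 CPM in Cre-Cre, 2.43, 11.9 and 191 CPM in Cre-pos and 1.65, 7.57 and 517 CPM in WT libraries.

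Neuronal sums were 3.16, 9.65 and 19.7 CPM in Cre-Cre, 2.98, 9.79 and 11.7 CPM in Cre-pos and 1.04, 3.71 and 14.0 CPM in WT libraries, which overlap throughout. Endothelial sums were 0.0363, 2.12 and 6.15 CPM in Cre-Cre, 0.0432, 0.123 and 1.92 CPM in Cre-pos and 2.57, 11.9 and 15.6 CPM in WT libraries. Fibroblast sums were 1.48, 4.55 and 11 CPM in Cre-Cre, 0.0308, 2.81 and 10.9 CPM in Cre-pos and 0, 2.38 and 24.1 CPM in WT libraries. The library with the highest sum differed between sources, namely WT 3 for astrocyte, oligodendrocyte and mural genes, WT 1 for endothelium and choroid plexus, WT 2 for fibroblasts, Cre-Cre 2 for neurons and Cre-Cre 3 for red cells.

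**Figure D4:**
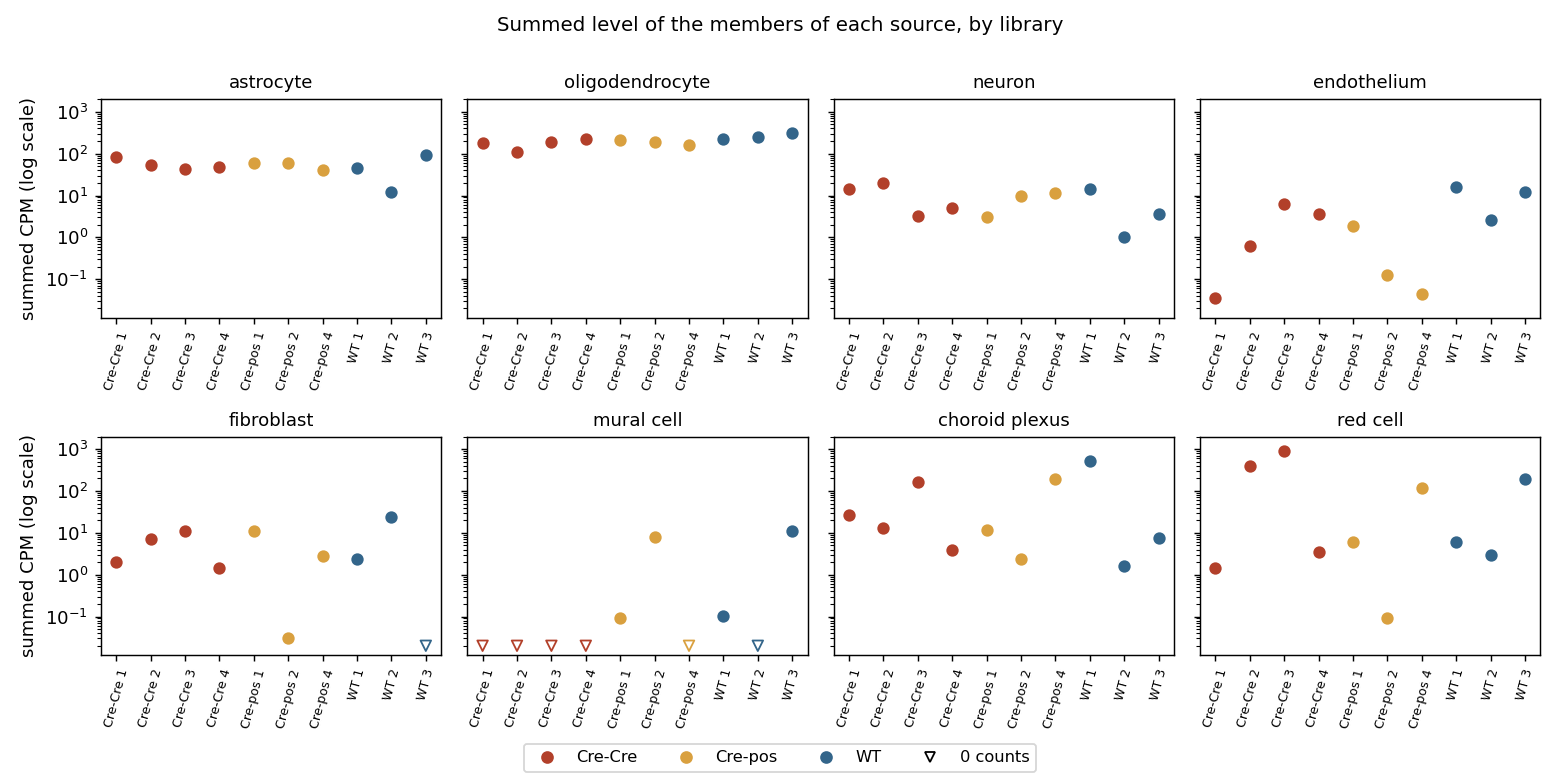
Summed CPM (vertical, log axis) of the members of each of the 8 sources in each library (horizontal, coloured by genotype), with open triangles for sums of 0 counts. Astrocyte and oligodendrocyte sums stay within 12 to 93.6 and 107 to 306 CPM, whereas red cell sums run from 0.0924 to 901 CPM.

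The genotype comparisons ask how transcript levels go with 2 copies or 1 copy of the allele when Cre is not induced, and the first 2 comparisons share the WT libraries. In Cre-Cre against WT libraries, 1 of 24 tested members was called by edgeR (Gja1) and 3 had an unadjusted p under 0.05, which 7.52% of all tested genes had. In Cre-pos against WT libraries, 0 of 24 members were called, as were 0% of all tested genes, while 3 had an unadjusted p under 0.05 against 5.82% of all genes, and DESeq2 called 1 and limma-voom 0. In Cre-Cre against Cre-pos libraries, 0 of 24 members were called against 0.0214% of all tested genes, 2 had an unadjusted p under 0.05 against 4.86%, and DESeq2 and limma-voom both called 0. The median log2 difference of the tested members was 0.73, -0.82 and 0.24 in these comparisons, beside 0.02, 0.01 and 0.01 over all tested genes. The member medians were the same with genes at 0 in a genotype set at the floor of 3 counts. These medians describe the members that passed the filter and not all 38.

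The groups did not overlap for 2 tested members in Cre-Cre against WT (Gja1 and Rbfox3, both higher), which held for 7.97% of all tested genes, 4.4% in that direction. In Cre-pos against WT there were 4 (Gja1, Rbfox3, Aldoc and Slc1a2, all higher), beside 9.6% of all tested genes and 5.43% in that direction. In Cre-Cre against Cre-pos there were 2 (Col1a1 higher, Slc1a2 lower), beside 7.47% of all tested genes. In 2 members, Gja1 and Rbfox3, all 7 libraries with the allele lay above all 3 WT libraries, as in 211 of 14023 tested genes (1.5%). Of the 93 further markers of the same sources, 90 were in the table and 34 were tested. Of these, 0 were called by edgeR in each of the 3 comparisons, 2, 2 and 2 had an unadjusted p under 0.05, and the lowest adjusted p was 0.624, 0.791 and 1.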

How the data were processed

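The authors deposited whole-number read counts per gene symbol, a column for each of 10 mice. Per the labels' protocols, cDNA from 500 pg of RNA was made with the SMARTer Ultra Low Input kit and Nextera XT, which mark no strand. The submitters' processing notes name bcl2fastq 2.20, STAR 2.7.8a and featureCounts 2.0.2. Build, annotation and strand setting: not given in the sources used here. Antisense, overlapping and near-identical genes can therefore share reads.

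Genotypes came from the titles. Filtering with filterByExpr (minimum count 10, total 15) kept 14023 of 22778 genes with a count, holding 99.89% of counts. Genes were tested with edgeR 4.0.16 (R 4.3.3; quasi-likelihood, robust, TMM, genotype only, 10 libraries). P-values were adjusted over all tested genes by the Benjamini-Hochberg method, with calls under 0.05. SE is the log2 difference divided by the square root of F. CPM uses TMM-scaled totals.

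Alternatives were DESeq2 1.42.0, limma-voom (limma 3.58.1), DESeq2 size factors, other filters, no robust estimation, title letter, replicate block, only the 2 genotypes compared, and leaving out each library. Values by library are given for called members, the 2 most abundant of each source and defining markers; other genes were chosen after their values were seen. Values of some listed genes are not reported here. Members and lists were chosen with earlier results of these data known. The fits were checked on simulated data. There edgeR called 29.5% to 33.3% of 4-fold changes and 4.35% to 9.89% of 2-fold changes, depending on the comparison. The changed genes were drawn at random from all tested genes, so the shares for the patchier members were not measured. A gene that was not called is therefore not shown to be unchanged.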

Additional observations from a re-analysis of the deposited data

Results flagged for a closer look

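In the Cre-Cre group of 4, a library that stood apart from the other 3 by Dixon's criterion was found for 9 of 34 values tested. Chance gives about 1 group in 20 for values near a normal distribution, which these are not. Where 3 libraries are at 0 the criterion is met by any value in the fourth (Aqp4, Mog and Gfap), and Enpp2 is part of the choroid plexus sum. The number of such values is therefore not read against chance. Cre-Cre 3 was the library in 7 of the 9. It was low for Gja1, at 3.78 CPM where the next library had 12.1 CPM. It was high for Aqp4 at 0.966 CPM and Mog at 2.28 CPM, where the others had 0. It was also high for Slc6a13 at 5.68 CPM (next 0.954), Enpp2 at 102 CPM (next 13.0), Alas2 at 40.4 CPM (next 3.92) and the choroid plexus sum at 168 CPM (next 27.4). Cre-Cre 4 stood apart for Gfap at 4.28 CPM, where the others had 0, and Cre-Cre 1 for Folr1 at 0.436 CPM (next 0.0293). Groups of 3 were not examined in this way.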

How the results depend on the processing

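Members called in Cre-Cre against WT numbered 1 (Gja1) in edgeR, 2 with DESeq2 (Gja1 and Rbfox3) and 0 with limma-voom, with the replicate block and with only the 2 genotypes compared. Leaving out single libraries gave 0 to 1. In Cre-pos against WT the count was 0 in edgeR and 1 with DESeq2 (Gja1), and 0 to 0 on leaving out libraries. In Cre-Cre against Cre-pos it was 0 under each setting. Counts over all genes in Cre-Cre against WT were 9 in edgeR, 272 with DESeq2, 17 with the title letter in the fit, 1 with the replicate block, 2 with the 2 genotypes alone and 2 to 12 on leaving out libraries. In Cre-pos against WT they were 0, and 193 with DESeq2. In Cre-Cre against Cre-pos they were 3, 109 with DESeq2, 1 without robust estimation, with the title letter, with the block or with 2 genotypes, and 1 to 2 on leaving out libraries. The replicate numbers are not said to pair mice. Correlations of deviations were -0.0034 to 0.044 in 8 same-numbered pairs and -0.066 to 0.074 in 25 others. Among libraries whose number both genotypes held, 5 of 6 matched their own number best in Cre-Cre against WT. In Cre-Cre against Cre-pos, 5 of 6 also did so. Against all Cre-Cre libraries, however, Cre-pos 4 matched Cre-Cre 3 (0.074) above Cre-Cre 4 (0.011). In Cre-pos against WT, Cre-pos 1 matched WT 2 (0.022) above WT 1 (0.0068), and Cre-pos 2 matched WT 3 (0.0072) above WT 2 (-0.0034). WT 1 matched Cre-pos 1 best.

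Of 304 recomputed log2 differences of named members, 281 kept direction and side of the threshold and 9 changed sign, all on leaving out a library. Cnp then ran from -0.36 to 0.12 in Cre-Cre and from -0.41 to 0.075 in Cre-pos against WT. In Cre-pos against WT, Aldh1l1 ran from -0.50 to 1.06 and Syt1 from -0.20 to 2.47. The cause was not tested. All 128 recomputed medians of summed CPM were unchanged or moved by less than 1 SD. Leaving out a library from a group of 3 or 4 cannot move its median by 1 SD. For those medians the outcome was therefore fixed in advance. Groups of 3 or 4 mice and counts at 0 limit what these comparisons can detect.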

Other observations

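Some further markers, picked after their values were seen, had over 100 counts in a single library and 0 in the other 9. Ntsr2, a neurotensin receptor of astrocytes, had 205 counts in Cre-Cre 3, and Bcan, a brain proteoglycan, had 117 in Cre-Cre 4. Slco1c1, a thyroid hormone transporter of brain vessels, had 118 counts in Cre-pos 1, and Olig2, a transcription factor of the oligodendrocyte lineage, had 156 in WT 3.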
